A study of Rattus norvegicus with 3 samples.

Results

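The Wnt pathway genes described here are 50 ligands, receptors, antagonists and intracellular parts of Wnt signalling, taken by name from a fixed list, and 22 of the 50 were the nearest gene of at least 1 Seh1 peak in rat oligodendrocyte progenitor cells (OPC). These 22 genes held 47 of the 9084 annotated OPC peaks. Seh1 is a subunit of the nuclear pore complex, and the DNA crosslinked to it was measured by ChIP-seq, which sequences immunoprecipitated chromatin. The OPC were cells from the forebrain of Sprague Dawley pups of postnatal day 1 to 2, grown with the growth factors PDGF-AA, bFGF, CNTF and NT3. Immature oligodendrocytes (iOL) came from such cells after 1 day of triiodothyronine (T3) at 60 nM, with PDGF-AA, bFGF and NT3 removed. Each stage had 1 library with the Seh1 antibody, and an IgG library of iOL was not analysed here. The depth of the libraries is unknown, since no read totals were at hand. With no replicate at either stage no test over samples was possible, and the values below describe 2 peak lists. Nothing in a peak list tests the labelled cell type against its marker genes.

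In the canonical Wnt pathway, a secreted Wnt protein binds a Frizzled receptor and the co-receptor Lrp5 or Lrp6 at the cell surface. This stops a destruction complex built on Axin and Apc, in which Gsk3b phosphorylates beta-catenin (Ctnnb1), and the stabilised beta-catenin then joins transcription factors of the TCF/LEF family on target genes. In the oligodendrocyte lineage the pathway is known for its hold on the differentiation of OPC, and Axin2, Nkd1, Lef1 and Znrf3 are widely used as its targets.

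Peaks were found for some members of every role, with the highest share among the intracellular parts when peaks at any distance were counted. An OPC peak was assigned to 8 of 20 ligands (40.0%, 95% exact binomial interval 19.1 to 63.9%), 5 of 12 receptors (41.7%, 15.2 to 72.3%), 4 of 10 antagonists (40.0%, 12.2 to 73.8%) and 5 of 8 intracellular parts (62.5%, 24.5 to 91.5%). Over all members the share was 44.0% (30.0 to 58.7%), beside 30.1% of 18539 coding genes. Each of the 4 intervals by role covered this 30.1%, and the difference was not tested. The intervals cover counting error only. A gene with much empty genome around it can collect more distant peaks, and the length of genome nearest to each gene was not measured.

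**Figure D1:**
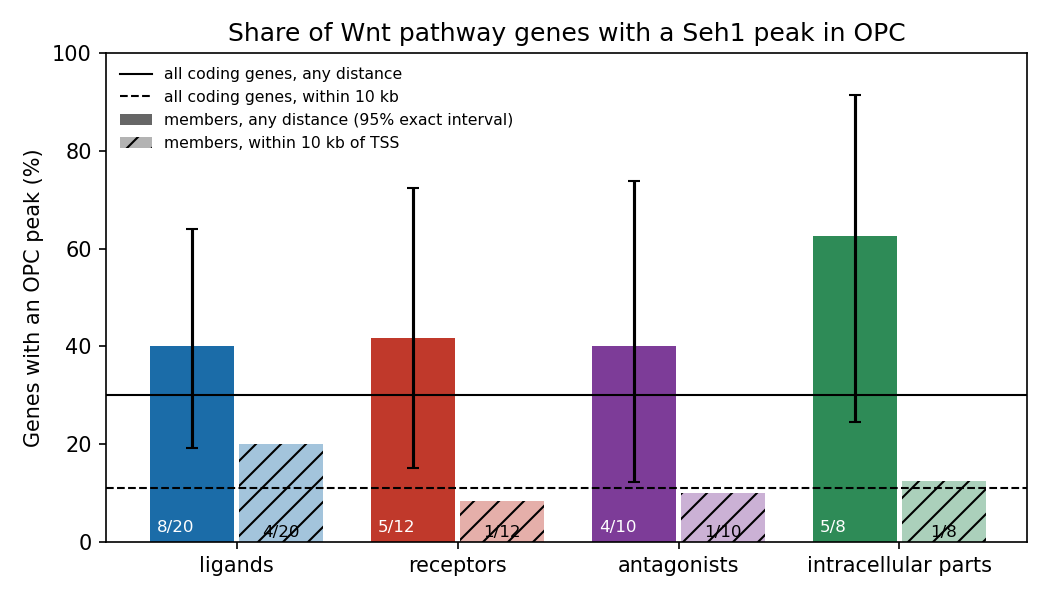
Share of genes (%) with an OPC peak, by role; solid bars count peaks at any distance with 95% exact binomial intervals, hatched bars count peaks within 10 kb of the transcription start site (TSS), and the lines give the shares over 18539 coding genes. Solid bars range from 40.0% to 62.5%, above the solid line at 30.1%, and the hatched bars lie on both sides of the dashed line at 11.1%.

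Close to the TSS the members stood nearer to the background. A peak within 10 kb of the TSS was found for 7 of 50 members, namely 4 ligands (Wnt3, Wnt7b, Wnt3a and Wnt10a), the receptor Fzd3, the antagonist Nkd1 and the transcription factor Lef1, beside 11.1% of coding genes. By role these were 4 of 20 ligands, 1 of 12 receptors, 1 of 10 antagonists and 1 of 8 intracellular parts. At this distance the highest share was thus among the ligands and not the intracellular parts. This order rests on few genes per role, and the roles were not tested against each other. Of the 47 member peaks 7 lay within 10 kb of the TSS (14.9%, 95% exact binomial interval 6.20 to 28.3%), beside 25.4% of all annotated OPC peaks. The median distance of a member peak to the TSS was 47.1 kb, beside 34.8 kb over all annotated peaks. The interval covered the share of the whole list, and neither difference was tested.

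**Figure D2:**
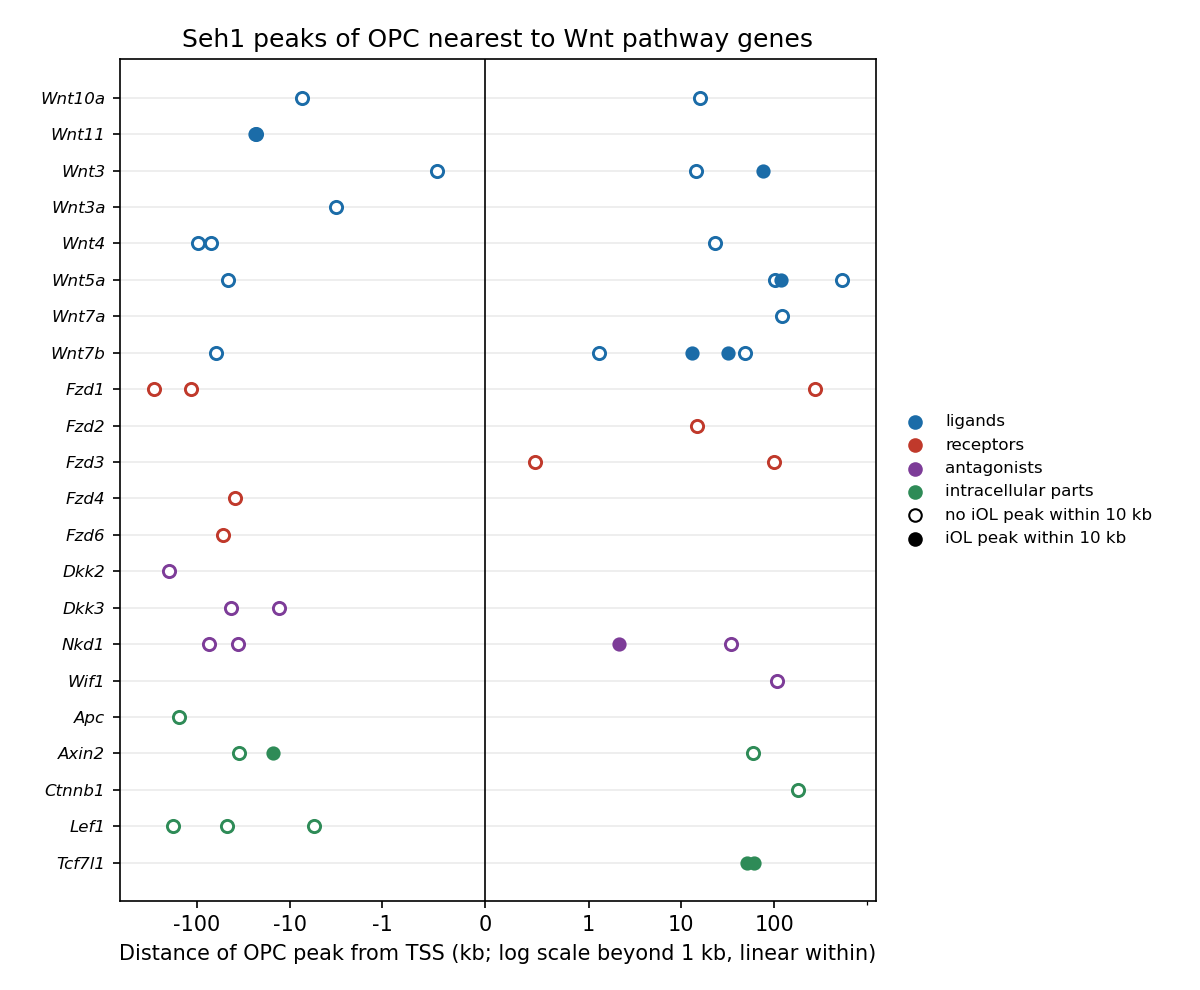
Signed distance (kb) of each of the 47 OPC peaks from the TSS of its nearest Wnt pathway gene, negative upstream, on a scale that is linear within 1 kb and logarithmic beyond; colours give the role, and filled points have an iOL peak within 10 kb. Only Wnt3 and Fzd3 have a peak within 1 kb of the TSS, and the 9 filled points belong to 7 genes.

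Promoter sequences are shown for 4 members: Wnt3, the only one with a peak in the promoter class, and the pathway targets Axin2, Nkd1 and Lef1, which had 3, 4 and 3 OPC peaks. Each is the RefSeq window of 300 bases on build GRCr8, from 250 bases before the start to 50 after it, read 5′ to 3′ along the gene. Capitals mark the 7 bases of a form of the TCF/LEF core motif, CTTTGAT or, on the other strand, ATCAAAG. Only this form was searched and is called the motif below, so unmarked stretches can hold other forms.
Wnt3: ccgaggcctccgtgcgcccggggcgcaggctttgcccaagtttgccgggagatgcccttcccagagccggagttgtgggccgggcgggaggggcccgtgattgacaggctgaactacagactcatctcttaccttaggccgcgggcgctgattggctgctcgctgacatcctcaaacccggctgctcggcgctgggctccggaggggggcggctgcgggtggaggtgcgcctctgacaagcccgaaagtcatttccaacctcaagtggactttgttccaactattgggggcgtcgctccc
Axin2: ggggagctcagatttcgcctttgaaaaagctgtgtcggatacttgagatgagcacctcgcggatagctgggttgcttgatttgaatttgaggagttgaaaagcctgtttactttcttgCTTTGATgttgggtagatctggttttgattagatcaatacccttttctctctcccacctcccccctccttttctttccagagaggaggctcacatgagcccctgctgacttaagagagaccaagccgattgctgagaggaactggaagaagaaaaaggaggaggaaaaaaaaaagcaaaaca
Nkd1: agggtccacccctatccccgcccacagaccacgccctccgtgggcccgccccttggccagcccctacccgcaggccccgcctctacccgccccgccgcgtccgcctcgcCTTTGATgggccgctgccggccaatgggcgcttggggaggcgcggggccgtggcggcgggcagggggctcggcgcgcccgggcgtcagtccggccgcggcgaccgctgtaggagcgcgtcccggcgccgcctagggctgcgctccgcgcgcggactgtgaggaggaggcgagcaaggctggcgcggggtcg
Lef1: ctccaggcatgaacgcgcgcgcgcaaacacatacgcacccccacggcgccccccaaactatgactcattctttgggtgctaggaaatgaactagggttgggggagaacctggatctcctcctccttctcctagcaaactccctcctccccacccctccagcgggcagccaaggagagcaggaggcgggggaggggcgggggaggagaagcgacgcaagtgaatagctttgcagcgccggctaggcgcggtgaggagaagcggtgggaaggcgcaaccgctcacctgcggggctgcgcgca
The motif occurred once in the window of Axin2, beginning 132 bases before the start, and once in that of Nkd1, beginning 141 bases before it. The windows of Wnt3 and Lef1 did not hold these letters. The motif was present in 3 of the 35 members with a RefSeq window (Axin2, Nkd1 and Tcf7, the last without a peak), beside 3.62% of all 27457 windows. The windows of Wnt3, Nkd1 and Lef1 were rich in CpG dinucleotides (24, 44 and 23), while that of Axin2 held 5, beside a median of 7 over all windows. The median window of the 16 members with a peak held 27 CpG dinucleotides at 65.5% GC, and that of the 19 members without a peak 25 at 66.7% GC. By these measures the medians of both groups were close. By distance to the rn6 TSS, none of the 4 genes had an OPC peak centred from 250 bases before it to 50 after it. The nearest peaks were centred at -467 bp for Wnt3, -15232 bp for Axin2, 2109 bp for Nkd1 and -5424 bp for Lef1. The windows were not placed on rn6, and the starts on rn6 and GRCr8 were not compared.

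Among the ligands, Wnt7b, a Wnt of the developing brain that also acts on its blood vessels, had 5 OPC peaks, the most of any member. Of the 5796 genes with an OPC peak 2.28% had 5 or more. The strongest lay in an intron at 1297 bp from the TSS (chr7:126464325-126464529 on rn6), with a score of 9.58. This score is the value that the authors' peak caller gave each peak, with a median of 7.66 over all annotated OPC peaks. Introns of Wnt7b held peaks at 13.0 kb (score 7.66) and 31.5 kb (score 7.02) as well. The other two lay between genes, at 48.7 kb (score 7.02) and, upstream, at -61.5 kb (score 6.38). Scores thus fell below the list's median for 3 of the 5 peaks. Wnt7a, the nearest relative of Wnt7b, had 1 intergenic peak at 122.4 kb, with a score of 7.02.

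Wnt3 had the member peak closest to a TSS. It was centred at -467 bp (chr10:91830140-91830344), in the promoter class of the authors' annotation, with a score of 8.3. A second peak lay in the first intron of Wnt3 at 14.2 kb (score 7.02). The third, at 76.7 kb (score 6.38), lay in an intron of Nsf, a gene of membrane fusion, and was assigned to Wnt3 as the nearest TSS. Wnt3a, a close relative that activates the canonical pathway, had a single intergenic peak at -3185 bp (chr10:45641118-45641322), with a score of 6.38.

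Several Wnt genes lie next to each other, and within each neighbouring pair at most 1 gene had a peak. Of all coding genes 30.1% had a peak, and neighbouring pairs of other genes were not counted. The pairs are thus described only. In the gene order of GRCr8 the pairs were Wnt3a and Wnt9a (1 and 0 peaks), Wnt3 and Wnt9b (3 and 0), Wnt10a and Wnt6 (2 and 0) and Wnt1 and Wnt10b (0 and 0). For Wnt10a and Wnt6 the choice of the nearest TSS decided this. The nearest peak of Wnt10a, at -7387 bp, lay in the last exon of Wnt6 (chr9:82046092-82046296, exon 4 of 4), with a score of 7.66. Wnt6 thus carried a peak in its own transcript although no peak was assigned to it. The other Wnt10a peak lay between genes at 16.0 kb (score 7.66).

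Wnt5a and Wnt11, ligands known mainly for signalling without beta-catenin, had no peak within 10 kb of the TSS. Wnt5a had 4, at -46.1 kb (score 7.66), 102.3 kb (8.3), 118.4 kb (7.66) and 533.3 kb (5.75). The last of these lay in an intron of the calcium channel subunit gene Cacna2d3, and its score was the lowest among member peaks. The other three lay in a SINE, a LINE and an LTR repeat. Wnt11 had a pair of intergenic peaks separated by 328 bases, at -23.8 kb in a CpG island (score 8.94) and at -23.3 kb (score 9.58). They were the closest pair of member peaks. Wnt4, a ligand best known from kidney and gonad development, had 3 intergenic peaks, at 23.2 kb (score 8.3), -70.5 kb (8.3) and -98.2 kb (8.94). All 3 scores of Wnt4 were above the list's median. The remaining 12 ligands had no peak assigned: Wnt1, Wnt2, Wnt2b, Wnt5b, Wnt6, Wnt9a, Wnt9b, Wnt10b, Wnt16 and the R-spondins Rspo1, Rspo2 and Rspo3, which keep Frizzled receptors at the surface.

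Among the receptors, Fzd3, a Frizzled known for its part in axon growth and planar polarity, had the highest-scoring assigned peak outside repeats. It lay in a CpG island in the first intron, 480 bp from the TSS (chr15:48669675-48669879), with a score of 10.9. Only 2.72% of annotated OPC peaks had a higher score. The second Fzd3 peak lay in a CA repeat at 100.7 kb, with a score of 6.38. Of the 6 members with a peak within 10 kb of the TSS and another peak, the nearest peak had the highest score in 3 (Fzd3, Wnt7b and Wnt3). It tied in Wnt10a and was below another peak of the gene in Nkd1 and Lef1.

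Other Frizzled genes had distant peaks only. Fzd1 had 3 with the same score of 7.02, at -116.1, -286.5 and 276.5 kb. The pair upstream lay in introns of another transcript. Fzd2 had 1 at 14.8 kb (score 7.66), Fzd4, the receptor of norrin in retinal vessels, 1 at -38.5 kb (score 8.3) and Fzd6, a planar polarity receptor, 1 at -52.7 kb (score 7.66). No peak was assigned by name to Fzd5, Fzd7, Fzd8, Fzd9, Fzd10, Lrp5 or Lrp6. The numeric gene ID of Fzd7 did appear in the authors' deposited table under a provisional name, with 1 intergenic peak at -116.4 kb (chr9:66189255-66189459, score 6.38). Both co-receptors of the canonical pathway were thus without an assigned peak. When matched by ID, 6 of 10 Frizzled genes had one at any distance, beside 30.1% of coding genes. Within 10 kb of the TSS only Fzd3 had one. The difference between co-receptors and Frizzled genes was not tested.

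Among the antagonists, Nkd1, a feedback inhibitor that binds Dishevelled, had 4 peaks, and the other three genes with a peak had 4 in all. The nearest peak of Nkd1 lay in an AC repeat in an intron 2109 bp from the TSS (chr19:19506876-19507080), with a score of 7.66. Further peaks lay in the same intron at 34.2 kb (score 8.3) and upstream between genes at -36.3 kb (score 6.38) and -73.8 kb (score 7.66). These 4 were spread at intervals of 31.9, 37.2 and 38.2 kb. Dkk3, a divergent member of the Dickkopf family, had peaks at -13.0 kb (score 7.02) and -43.3 kb (score 6.38). Dkk2, which blocks Lrp5 and Lrp6, had 1 at -196.9 kb (score 7.02), and Wif1, which binds Wnt proteins outside the cell, 1 at 106.3 kb (score 7.66). Dkk1, the secreted Frizzled-related genes Sfrp1, Sfrp2, Sfrp4 and Sfrp5, and Znrf3, which removes Frizzled from the surface, had none. The antagonists with peaks belonged to 3 families. None of the 4 Sfrp genes was among them, beside 30.1% of coding genes with a peak, and with so few genes this was not tested.

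Among the intracellular parts, Lef1, a TCF/LEF transcription factor, had 3 intergenic peaks. The nearest lay in a GC-rich simple repeat at -5424 bp (chr2:236227912-236228116), with a score of 7.02, followed by -47.1 kb in an LTR repeat (score 8.94) and -179.0 kb (score 7.02). All 3 lay upstream. Axin2, the scaffold of the destruction complex and a feedback target of the pathway, had peaks at -15.2 kb (score 7.66), -35.2 kb (7.66) and 58.8 kb (8.3). Its relative Axin1 had none. Ctnnb1, the gene for beta-catenin itself, had 1 assigned peak, at 182.7 kb (score 8.3). Peaks nearer to it but assigned to another gene were not counted. Gsk3b and Tcf7 had none.

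Tcf7l1, a TCF factor known mainly as a repressor, had the highest-scoring member peak. It lay in intron 3 of 11 at 60.2 kb (chr4:100599869-100600073) with a score of 23.6, in a copy of 7SL, an abundant small RNA that forms the core of the signal recognition particle. Only 29 annotated OPC peaks had higher scores. All 18 OPC peaks annotated as 7SL RNA repeats overlapped an iOL peak, and this was 1 of them. A second Tcf7l1 peak lay in the same intron at 50.5 kb, with a score of 7.02. A further peak within a Tcf7l1 transcript, in intron 4 of 11 (chr4:100500681-100500885, score 6.38), was assigned to Tgoln2.

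Apc, the tumour suppressor that holds the destruction complex together, had 1 peak assigned to it, in an LTR repeat at -154.3 kb with a score of 7.66. A much stronger peak lay inside the gene. It covered part of exon 9 of 15 (chr18:27084687-27084891), with a score of 23.0, and the table gave it to Srp19 because the TSS of that gene, 30.0 kb away, was the nearest. Only 31 annotated OPC peaks scored higher. The nearest iOL peak was 63.6 kb away. Assignment by nearest TSS therefore left the higher-scoring of the 2 peaks in exons of members, this one and that of Wnt6, outside the 47. This peak was looked up after its values were seen.

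**Figure D3:**
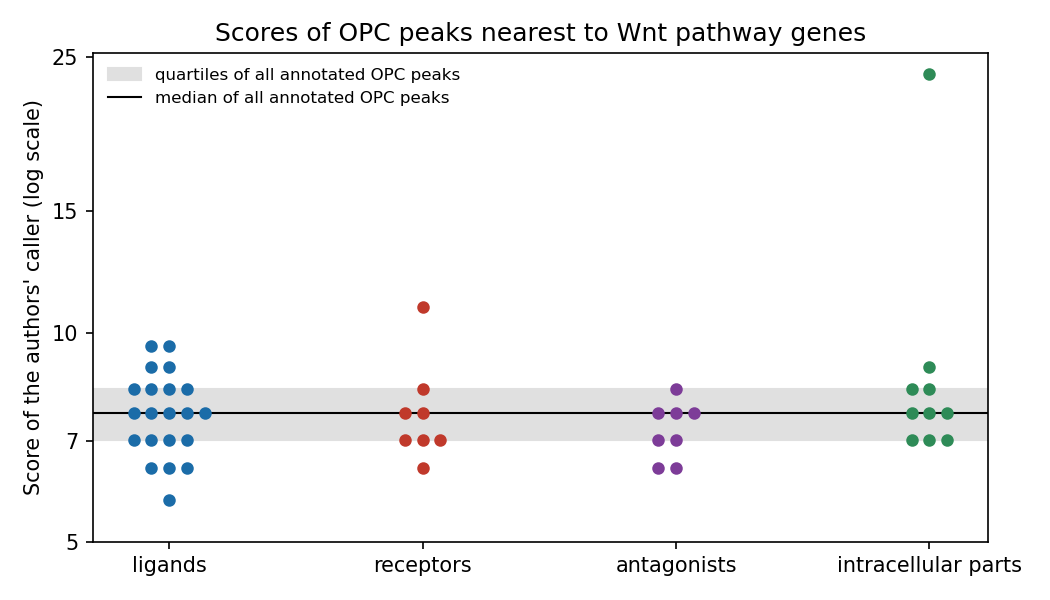
Score given by the authors' caller (log scale) of each of the 47 member peaks, by role; the grey band spans the quartiles, 7.02 and 8.3, and the line the median, 7.66, of all annotated OPC peaks. Most points lie in the band, and the peaks in the 7SL copy in Tcf7l1 (23.6) and in the CpG island of Fzd3 (10.9) stand above the rest.

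By score, the member peaks resembled the list they came from. Their median was 7.66 with quartiles of 7.02 and 8.3, the same 3 values as over all annotated OPC peaks. These are neighbouring steps of the score, so equal quartiles show only a coarse likeness. Scores above 9 were reached by 4 of 47 member peaks (8.51%), beside 8.99% of all peaks. The medians by role were 7.66 for ligands and intracellular parts and 7.34 for receptors and antagonists. The focus ratio, a fraction that the caller gives each peak, also had the same median, 0.778, in both sets.

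By position, member peaks lay mostly between genes. The intergenic class held 32 of 47 (68.1%, 95% exact binomial interval 52.9 to 80.9%), beside 56.7% of all annotated OPC peaks, and introns held 13 (27.7%), beside 29.4%. Promoters and exons held 1 each, the peaks near Wnt3 and in Wnt6. Repeats held 17 of 47 (36.2%), beside 33.2%. Among these were 7 LTR repeats (14.9%, 6.20 to 28.3%, beside 7.78%), 5 simple repeats (10.6%, beside 3.80%) and 2 LINE repeats (4.26%, 0.520 to 14.5%, beside 9.93%). The interval for simple repeats was 3.55 to 23.1%, and each interval given here covered the share of the whole list. Of the 47 peaks 24 lay upstream and 23 downstream, while 57.6% of all annotated peaks lay downstream.

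The comparison with iOL asked whether Seh1 peaks after T3 lay near those of OPC at the same genes. An iOL peak within 10 kb, measured from edge to edge, was found for 9 of 47 member peaks (19.1%, 95% exact binomial interval 9.15 to 33.3%), beside 10.3% of all annotated OPC peaks. These 9 belonged to Wnt7b, Tcf7l1 (2 each), Wnt3, Wnt5a, Wnt11, Axin2 and Nkd1 (1 each), that is 4 ligands, 1 antagonist and 2 intracellular parts. None of the 8 receptor peaks, which belonged to 5 genes, had an iOL peak within 10 kb. With so few peaks this was not tested against the 10.3% of the whole list. Only the 7SL copy in Tcf7l1 gave an overlap, of 178 bp with chr4:100599838-100600046, so that 1 of 47 member peaks overlapped an iOL peak, beside 1.73% of all annotated OPC peaks. Leaving that OPC peak out, 8 of 46 had an iOL peak within 10 kb. These still include the second Tcf7l1 peak, whose nearest iOL peak was that of the 7SL copy. The interval treats the 47 peaks as independent, although they came from 22 genes and some shared an iOL peak, so it can be too narrow.

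After the 7SL copy, the closest neighbours of both stages were at Wnt5a, where 769 bases separated the OPC peak at 118.4 kb, in an LTR repeat, from the iOL peak chr16:4586783-4586991. In Nkd1 3854 bases separated the intron peak at 2109 bp from chr19:19502813-19503021. In Axin2 8059 bases separated the peak at -15.2 kb from chr10:97188881-97189089. That iOL peak lay between 2 OPC peaks of Axin2, 11482 bases from the other. In Wnt7b a single iOL peak, chr7:126444154-126444362, lay between the intron peaks at 13.0 and 31.5 kb, at 8239 and 9873 bases. The second Tcf7l1 peak was 9517 bases from the iOL peak of the 7SL copy. The limit of 10 kb fell among closely spaced values: Wnt11 at 9855 and Wnt3 at 9999 bases were just inside, and the second Wnt11 peak at 10388 and a Wnt4 peak at 10704 bases just outside. The 9 OPC peaks had 7 different iOL peaks as neighbours, 1 for each gene.

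**Figure D4:**
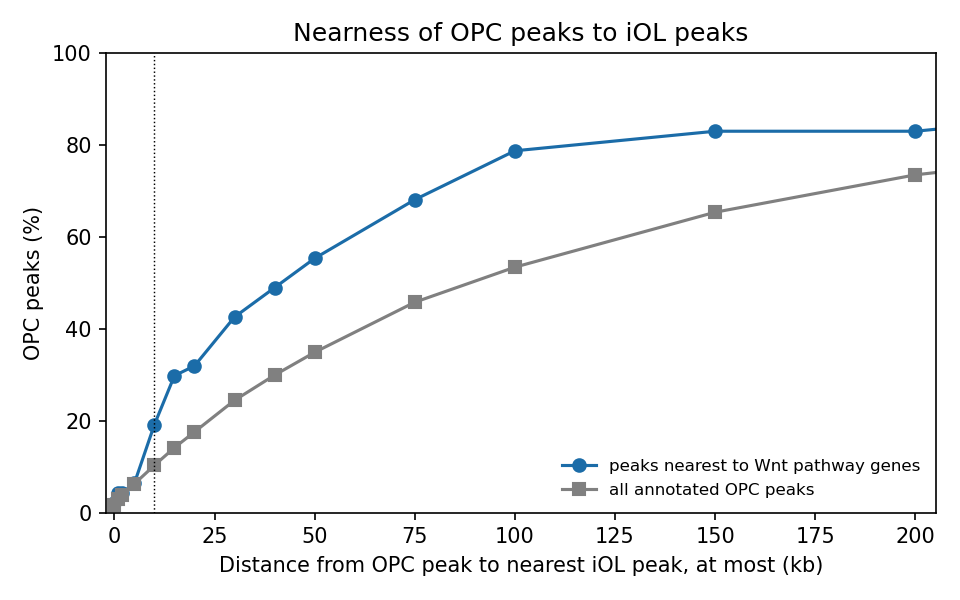
Share of OPC peaks (%) whose nearest iOL peak lies within the distance on the x axis (kb), for the 47 member peaks and for all annotated OPC peaks; the dotted line marks 10 kb. The curves lie together up to 5 kb (6.38% and 6.25%) and apart beyond, at 55.3% and 34.9% within 50 kb.

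Over wider distances iOL peaks were, by the median, closer to member peaks than to OPC peaks at large in every role except the receptors. The median distance to the nearest iOL peak was 41.4 kb, beside 88.3 kb over all annotated OPC peaks. By role the medians were 28.9 kb for ligands, 29.6 kb for antagonists, 43.6 kb for intracellular parts and 153.8 kb for receptors. The last rests on 8 peaks of 5 genes. Within 5 kb the shares were alike, 3 of 47 member peaks (6.38%) and 6.25% of all. Member peaks also lay closer to other OPC peaks, with a median of 35.7 kb to the nearest one beside 64.2 kb over all annotated peaks. At short range this was not so: another OPC peak lay within 10 kb of 4 of 47 member peaks (8.51%), beside 11.9% of all annotated peaks. The part of this spacing in the distances to iOL peaks was not tested.

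The TSS could be placed on rn6 for the 13 members with at least 2 OPC peaks, because the distances of the peaks then fix both the position and the strand. Of these 13, 11 had an iOL peak within 50 kb of the TSS, beside 34.8% of the 1971 genes placed in the same way. Within 10 kb only 2 of the 13 did, beside 9.44% of those genes: Axin2, at 8.96 kb downstream (chr10:97221343-97221551), and Nkd1, at 6.17 kb downstream. Wnt3 and Wnt5a had none within 50 kb. With only 13 genes, neither share was tested against that of the 1971 genes. The closer spacing of member peaks to other OPC peaks was not taken into account.

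Nkd1 and Wnt4 had the most iOL peaks in that range, 3 each. Those of Nkd1 lay at -11.1, 6.17 and 19.3 kb, between its OPC peaks at -36.3, 2.11 and 34.2 kb, the first between the upstream pair of these and the others between the downstream pair. Those of Wnt4 lay at -28.9, 34.1 and 42.3 kb. Axin2 had a pair at -23.5 and 8.96 kb, Tcf7l1 a pair at 19.8 and 37.3 kb, both in its transcribed part, and Lef1 a pair at 32.4 and 47.2 kb. The iOL peaks of Lef1 lay downstream of the TSS and all of its OPC peaks upstream. Dkk3 showed the same arrangement, with an iOL peak at 21.3 kb. Single iOL peaks lay at 21.5 kb for Wnt7b, -36.5 kb for Wnt10a, -33.9 kb for Wnt11, -48.5 kb for Fzd1 and -49.2 kb for Fzd3. None of these 18 iOL peaks overlapped an OPC peak assigned to the gene.

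**Figure D5:**
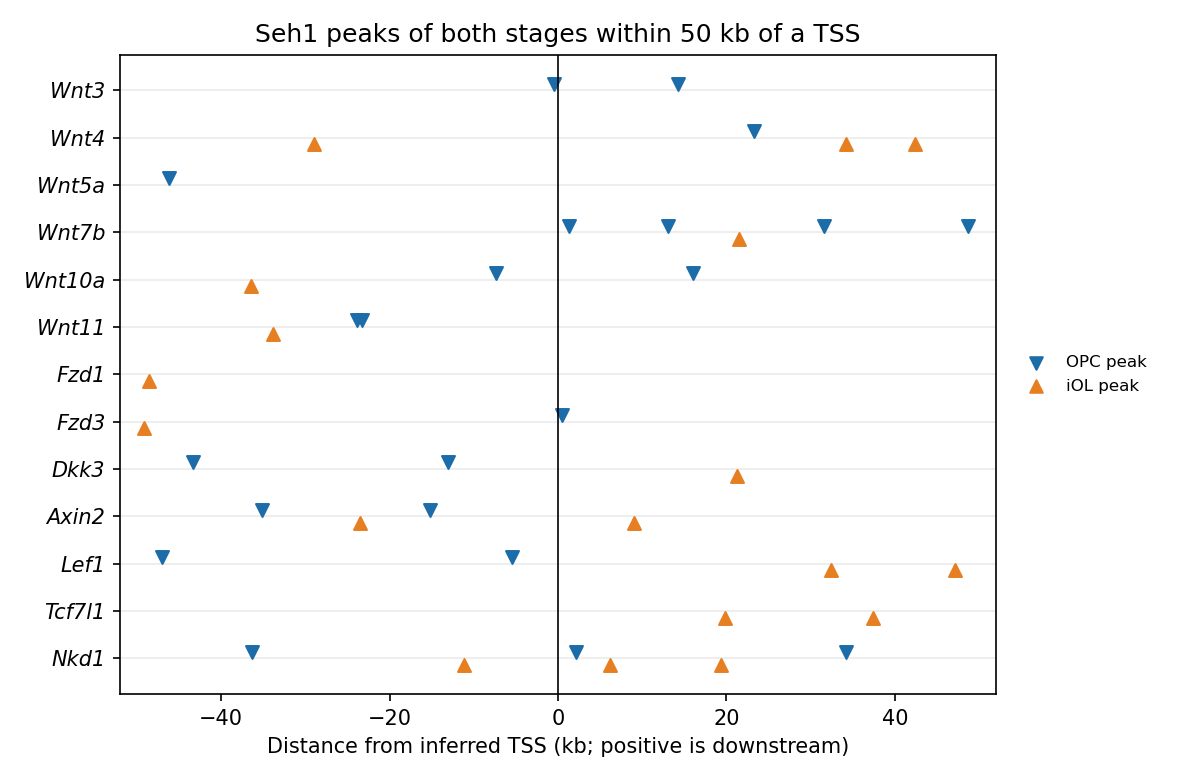
OPC peaks (blue, pointing down) and iOL peaks (orange, pointing up) within 50 kb of the TSS inferred for 13 Wnt pathway genes, by signed distance (kb, positive downstream). In Axin2 the peaks of both stages alternate, in Nkd1 the iOL peaks lie between OPC peaks, and in Lef1 and Dkk3 the OPC peaks lie upstream and the iOL peaks downstream of the TSS.

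A further 54 Wnt pathway genes outside the 50 had a similar share with an OPC peak, 21 of 54 (38.9%), again beside 30.1% of coding genes. Peaks were assigned to 3 of 5 genes of ligands and their release, 2 of 10 other receptors, 3 of 10 antagonists, 9 of 19 intracellular parts and 4 of 10 planar polarity genes. Dvl1, a Dishevelled gene that passes the signal from Frizzled to the destruction complex, had a promoter peak at -66 bp (score 8.3). Prickle2, a planar polarity gene, had an intron peak at 284 bp (score 7.66), and Wls, which carries Wnt proteins to the cell surface, one at 719 bp (score 7.02). Of the 54 genes 7 had a peak within 10 kb of the TSS, beside 11.1% of coding genes. Tcf7l2, the TCF factor most studied in oligodendrocytes, had no peak assigned. Of the 31 peaks of these genes 4 had an iOL peak within 10 kb, beside 10.3% of all annotated OPC peaks. They belonged to Dvl3, Tle2 (1 each) and Bcl9l (2), all intracellular parts, a role that held 13 of the 31 peaks.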

How the data were processed

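Peaks of 1 Seh1 library per stage were used. The submitters' processing notes name Bowtie2, HOMER, rn6 and hg18 without roles or versions; for peak thresholds, duplicates and multiply mapping reads the handling is not given in the sources used here. Positions (9117 OPC peaks of 205 bp, 6704 iOL peaks of 209 bp) and an annotated table, filed with the iOL library, were deposited by the authors. Per the file headers, HOMER annotated these peaks on rn6, and the input's name pairs Seh1 of OPC with IgG of iOL. Its 9084 intervals all occur in the OPC list and 0 in the iOL list, so it was used for OPC; 33 OPC peaks have no annotation. The score and the focus ratio, a fraction, are values the authors deposited per peak and serve as description only.

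Peaks were assigned by the table's nearest TSS and gene name. All 50 members were in the RefSeq gene table of GRCr8, which gave names and gene order. Background genes were its 18539 coding genes with a curated transcript, matched by numeric ID, with 49 members (not Znrf3). Distances between peaks count bases between edges, and overlap means at least 1 bp; the code was tested on simulated intervals. Intervals are Clopper-Pearson at 95%. Those over peaks take no account of several peaks belonging to the same gene and can be too narrow. Members, roles and lists were chosen with earlier results of these data known. Members with a peak within 10 kb of a TSS or of an iOL peak, the most peaks or the highest scores were to be described singly. Peaks inside members' transcripts, the inferred TSS, peak spacing and promoter features were added after the values were seen, as was the choice of promoters shown. Of 55 further Wnt genes listed, 54 were in the gene table. Alternatives were a score minimum, repeats left out, ID matching, distance limits and iOL windows. Python 3.11.15, pandas 2.3.3 and scipy 1.17.1 were used.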

Additional observations from a re-analysis of the deposited data

How the results depend on the processing

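Counts followed the limits set on peaks. With scores at or above the list's median of 7.66, 28 of 47 member peaks (59.6%, beside 51.9% of all) and 17 members, beside 18.8% of coding genes, were left with a median score of 8.3, and without peaks in repeats 30 member peaks and 18 members, beside 22.7% of coding genes. With peaks within 50 kb of the TSS 14 members had a peak, 25 peaks in all. Widening the limit of 10 kb from the TSS to 50 or 100 kb raised the number of members from 7 to 14 or 16, beside 22.1 or 25.9% of coding genes in place of 11.1%. Member peaks with an iOL peak in reach numbered 1 by overlap, 3 within 5 kb, 15 within 20 kb and 26 within 50 kb, against 9 within 10 kb; the shares of all annotated OPC peaks were 1.73, 6.25, 17.5 and 34.9%. Matching by numeric ID gave 23 members and 48 peaks. Leaving out OPC peaks in 7SL copies, an alternative chosen after seeing the data, left 22 members, 46 peaks and 8 with an iOL peak within 10 kb. The iOL peak in the 7SL copy of Tcf7l1 was kept in this count. No paired analysis was possible because each stage has 1 library. Depth is unknown, so a gene without a peak is not shown to lack Seh1, and background in OPC was not measured by an IgG library of OPC.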
